A study of Mus musculus with 12 samples.

Results

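The genes of apoptotic cell uptake described here are Mertk, Axl, Tyro3, Pros1, Gas6, Mfge8 and Tgm2. They are 7 of 11095 genes tested, measured by 12 of 41174 probes, on arrays of mouse bone marrow-derived dendritic cells stimulated with lipopolysaccharide (LPS), the outer membrane glycolipid by which Gram-negative bacteria are sensed. A probe belonged to a gene if the RefSeq accession printed for it was that gene's, and where a gene had several, the brightest on average was taken. The genes were selected on measured values of these arrays, among them that Mertk and Pros1 were higher at 6 h and lower at 24 h and that Tgm2 ran the other way. Levels and differences at 6 h and 24 h are therefore a description, with no test, and the test was applied to the genes at 1 h alone. The unstimulated arrays were part of the values selected on and are also the baseline at 1 h. The 1 h test is therefore not free of the selection.

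Marrow from femur and tibia, depleted of B and T cells, was grown in all 4 groups with 10 ng/ml GM-CSF plus 5 ng/ml IL-4 over 5 days, and LPS at 100 ng/ml was present for 0, 1, 6 or 24 h. Cells were collected by repeated pipetting and the labels name no sort. The labels give neither strain nor genotype nor age. Each group held 3 samples, given as biological replicates from donors A, B and C, which made 12 arrays. The labels do not say if donor A is 1 animal throughout. Unstimulated cells were taken at 0 h alone, so LPS and added time in culture cannot be told apart. Every array set 1 Cy5-labelled sample against a Cy3-labelled pool of mouse reference RNA, and each level below is a log2 ratio of sample to that reference. A level can be compared between groups for the same probe and not between genes.

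Dying cells expose phosphatidylserine on their outer membrane, and phagocytes recognise it directly or through soluble bridging proteins. Tyro3, Axl and Mertk form the TAM family of receptor tyrosine kinases, whose ligands Pros1 (protein S) and Gas6 bind phosphatidylserine at one end and the receptor at the other. Besides driving uptake, TAM receptors are known as brakes on Toll-like receptor and interferon signalling in dendritic cells and macrophages. Mfge8 bridges phosphatidylserine to alpha-v integrins, and Tgm2, a transglutaminase that crosslinks proteins, also works at the cell surface as a partner of integrins in uptake.

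Mertk, Axl and Pros1 had the same order of groups at 6 h and 24 h, and their promoter sequences are shown for that reason. Each is the 250 bases before the annotated start of transcription, from RefSeq on GRCm38.p6, 5′ to 3′ on the strand of the gene. Capitals mark matches on either strand to the GC box GGGCGG, which Sp family factors bind, and to TTCNNNGAA, the letters of a GAS element that STAT dimers bind. Mertk lies on the plus strand at chr2:128698665-128698914, Axl on the minus strand at chr7:25788734-25788983 and Pros1 on the plus strand at chr16:62854057-62854306.
Mertk: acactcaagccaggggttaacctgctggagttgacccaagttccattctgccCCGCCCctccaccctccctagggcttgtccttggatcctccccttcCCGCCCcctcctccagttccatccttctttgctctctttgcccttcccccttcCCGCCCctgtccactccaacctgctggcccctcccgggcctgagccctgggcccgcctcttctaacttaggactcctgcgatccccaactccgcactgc
Axl: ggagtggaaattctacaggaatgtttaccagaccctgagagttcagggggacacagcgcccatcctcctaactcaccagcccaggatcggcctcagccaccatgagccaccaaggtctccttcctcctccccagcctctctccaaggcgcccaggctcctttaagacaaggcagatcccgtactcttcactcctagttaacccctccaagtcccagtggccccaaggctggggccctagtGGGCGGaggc
Pros1: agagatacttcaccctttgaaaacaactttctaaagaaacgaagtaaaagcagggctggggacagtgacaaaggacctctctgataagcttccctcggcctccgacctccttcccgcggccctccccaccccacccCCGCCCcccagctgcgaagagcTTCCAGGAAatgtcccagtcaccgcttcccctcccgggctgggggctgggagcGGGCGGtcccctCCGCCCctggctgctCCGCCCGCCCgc

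The Mertk sequence held 3 GC boxes, the Axl sequence 1 and the Pros1 sequence 5, of which 2 overlap. The same stretch of Tyro3, Gas6 and Mfge8, not shown, held 3, 4 and 4, so GC boxes did not set the genes shown apart. Of 32851 promoters in the table, 32.7% held at least 1 GC box in the same stretch. Pros1 also held the letters TTCNNNGAA once, beginning 92 bases before the start, a match found in 7.02% of all promoters. On both strands the letters AGGTCA (the core letters of nuclear receptor elements, in 14% of promoters), TGANTCA (AP-1, 6.75%), GGANTTTCC (kappa B, 1.07%), GAAANNGAA (part of an interferon response element, 7.13%) and TGACG (part of a cAMP response element, 17.8%) were not in these 250 bases of the Mertk, Axl, Pros1, Tyro3, Gas6 or Mfge8 promoters, which were the 6 of the 7 genes matched in the table. The GC content of the sequences was 63.6% for Mertk, 60% for Axl and 64.4% for Pros1, against a median of 52.4% over all promoters. Such matches are letters and not binding sites.

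All 7 genes passed the filter on dim probes, and the probe used for each was well above background in Cy5 on all 12 arrays. Mertk was nonetheless dim, at 56.5 to 376 intensity units above local background in Cy5 and 30.5 to 59 in the Cy3 reference. Tyro3 had 51 to 204 units in Cy5 and 121 to 192 in Cy3. The median over an array's probes was 24 to 44 units in Cy5 and 21 to 47 in Cy3. In Cy5, between 48.7 and 58.1% of an array's probes were well above background. Replicate arrays of a group correlated across the tested genes at r between 0.946 and 0.984, and their number limits the precision. Per the headers, 4 slides were used. Slide 1 carried all 3 unstimulated samples together with 1 h donor A, and slide 2 carried donor B at 1 h and 24 h. On slide 3 were donor C at 1 h and donors A and B at 6 h, and on slide 4 donor C at 6 h and donors A and C at 24 h. Unstimulated samples thus never shared a slide with 6 h or 24 h samples, and those differences were also computed with slide as a block in the linear model. Within slides they were chained through the 1 h arrays, as the difference from the 1 h array on the later slide plus that between 1 h and unstimulated cells on slide 1.

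**Figure D1:**
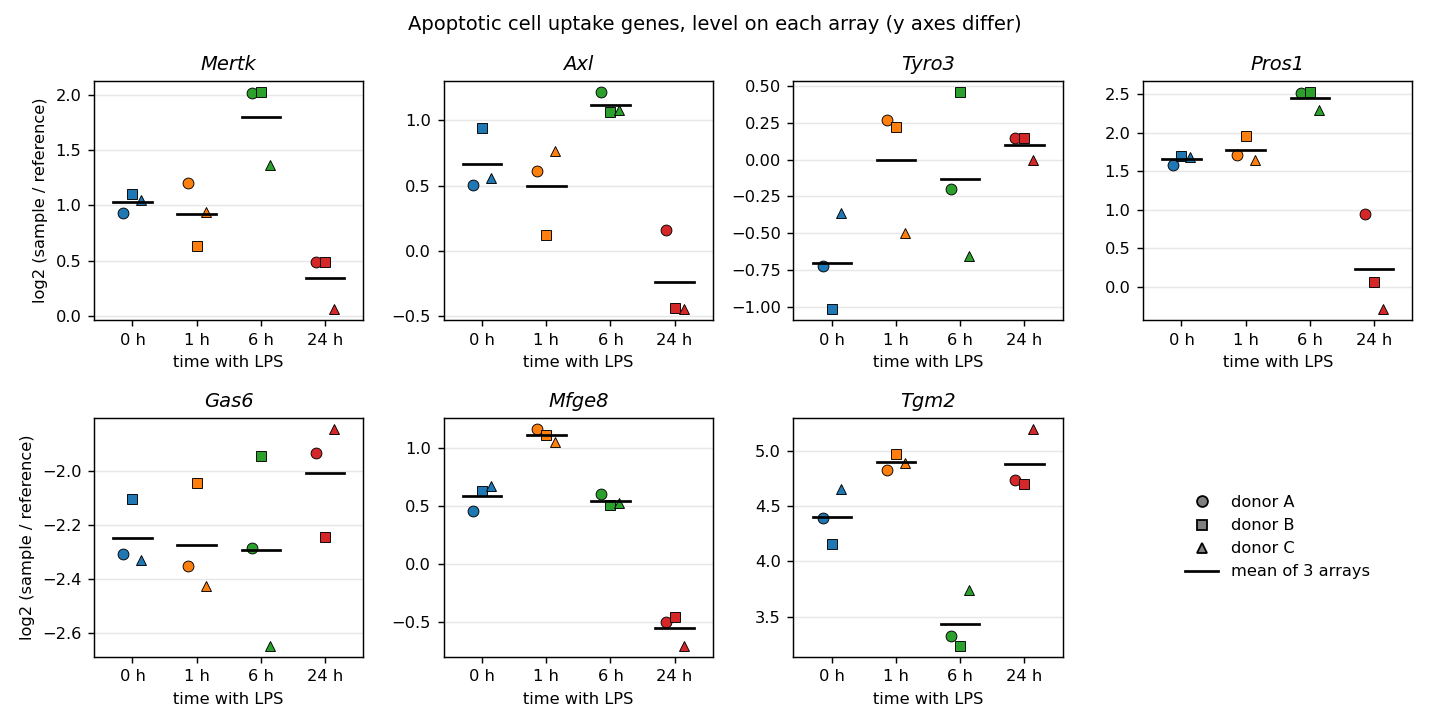
Level of each gene as log2 ratio of sample to reference (y axis, with its own range in each panel) against time with LPS (x axis, 0 h being unstimulated cells). Symbols are arrays of donors A, B and C and the bar is the mean of 3 arrays: Mertk, Axl and Pros1 lie highest at 6 h and lowest at 24 h, and Tgm2 lies lowest at 6 h.

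Mertk is the TAM receptor best known for uptake of apoptotic cells by macrophages. Its log2 ratios in donors A, B and C were 0.93, 1.10 and 1.05 in unstimulated cells and 1.20, 0.63 and 0.94 at 1 h. They were 2.02, 2.03 and 1.37 at 6 h and 0.49, 0.48 and 0.06 at 24 h. All 3 arrays at 6 h lay above all others and all 3 at 24 h below all others, while unstimulated and 1 h arrays overlapped. The mean at 6 h was higher than in unstimulated cells by 0.78 (SE 0.20), a 1.71-fold difference, and the mean at 24 h was 0.68 below it, 1.61-fold lower.

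For Mertk the 24 h difference from unstimulated cells depended on how slides were handled. The slide of the unstimulated cells is linked to the others through single 1 h arrays of different donors. Slide and the scatter of those arrays cannot be told apart. The 24 h difference was -0.68 over all arrays, 0.08 (SE 0.25) with slide as a block and 0.03 within slides. Leaving out an unstimulated or 1 h array, or taking donor as a block, could not change the difference between 24 h and 6 h. That difference stayed below 0 under all 22 alternatives. It was -1.46 (SE 0.20) over all arrays, 2.75-fold, -1.14 (SE 0.16) with slide as a block and -1.09 within slide 4, with a range over the alternatives from -2.24 with the scanner's processed signals to -0.83 with normexp on every local background as deposited. The excess at 6 h over unstimulated cells was 1.22 with slide as a block, 1.26 within slides and 0.15 when normexp took the local background of every spot as deposited. At 1 h the difference was -0.10 (SE 0.20), with an adjusted p of 0.788 by limma and an interval from -0.53 to 0.33.

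Axl, the TAM receptor that binds Gas6 most tightly and that inflammatory signals are known to induce in dendritic cells, followed the same course. Its log2 ratios were 0.50, 0.94 and 0.56 in unstimulated cells and 0.61, 0.12 and 0.76 at 1 h. They were 1.22, 1.06 and 1.08 at 6 h and 0.16, -0.44 and -0.45 at 24 h. The 6 h arrays lay above all others. The 24 h arrays lay below all unstimulated and 6 h arrays, although the array of donor A at 24 h was above that of donor B at 1 h. The difference from unstimulated cells was 0.46 (SE 0.20) at 6 h, 1.37-fold, and -0.91 at 24 h, 1.88-fold lower. With slide as a block these were 0.41 (SE 0.33) and -0.73 (SE 0.34), and the difference between 24 h and 6 h was -1.36 over all arrays and -1.14 with the block. At 1 h Axl differed by -0.17 (SE 0.20), adjusted p 0.642 by limma.

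Tyro3, the TAM receptor of neurons and of some myeloid cells, did not follow them. Its log2 ratios were -0.72, -1.02 and -0.36 in unstimulated cells and 0.27, 0.22 and -0.50 at 1 h. They were -0.20, 0.46 and -0.65 at 6 h and 0.14, 0.15 and 0.00 at 24 h. Unstimulated cells had the lowest mean, and the later groups overlapped one another. The 24 h arrays were the only later group to lie wholly above the unstimulated arrays, by 0.80 in the mean (SE 0.27), 1.74-fold.

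At 1 h the mean of Tyro3 was 0.70 higher (SE 0.27), with an adjusted p of 0.136 by limma. Leaving out the 1 h array of donor C gave 0.94 and an adjusted p of 0.0476. The 6 h difference of 0.57 was 0.27 without the 6 h array of donor B, 0.95 with the scanner's processed signals, 1.17 (SE 0.48) with slide as a block and 1.59 within slides. The 24 h difference was 1.30 with the scanner's processed signals and 1.46 with the block. A second probe of Tyro3, well above background on 11 arrays, gave smaller differences of 0.29, 0.22 and 0.33 at 1, 6 and 24 h. The remaining probe was above background on 1 array and was not kept.

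Pros1 had the widest range of the 7 between group means. This vitamin K-dependent plasma protein, also an anticoagulant, is a ligand of Mertk and Tyro3. Its log2 ratios were 1.58, 1.70 and 1.69 in unstimulated cells and 1.71, 1.96 and 1.64 at 1 h. They were 2.51, 2.53 and 2.30 at 6 h and 0.94, 0.06 and -0.29 at 24 h. Unstimulated and 1 h arrays overlapped, the 6 h arrays lay above all others, and the 24 h arrays lay below all others with the widest spread (SD 0.63), donor A being the highest.

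The mean of Pros1 at 6 h was higher than in unstimulated cells by 0.79 (SE 0.24), 1.73-fold, and at 24 h lower by 2.67-fold, a log2 difference of -1.42. From 6 h to 24 h the log2 ratio differed by -2.21, 4.62-fold. With slide as a block the 3 differences were 0.70 (SE 0.49), -1.51 (SE 0.51) and -2.21 (SE 0.33). Normexp with every local background as deposited reduced the 6 h difference to 0.29. A second probe of Pros1 gave 0.94 at 6 h and -1.28 at 24 h against unstimulated cells. At 1 h Pros1 differed by 0.12 (SE 0.24), adjusted p 0.795 by limma.

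Gas6, the other TAM ligand and one that binds all 3 receptors, lay within a narrow band below the reference. Its log2 ratios were -2.31, -2.10 and -2.33 in unstimulated cells and -2.35, -2.04 and -2.43 at 1 h. They were -2.29, -1.94 and -2.65 at 6 h and -1.93, -2.25 and -1.84 at 24 h. All groups overlapped. The differences from unstimulated cells were -0.03 at 1 h (SE 0.18, adjusted p 0.945 by limma), -0.05 at 6 h and 0.24 at 24 h, with an interval from -0.15 to 0.63 for the last, which was -0.31 within slides. Its spots were 191.5 to 398 intensity units above local background in the sample channel.

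Mfge8 showed its highest values at 1 h. Also called lactadherin, it is known in immature dendritic cells grown with GM-CSF and in their vesicles. Its log2 ratios were 0.46, 0.63 and 0.67 in unstimulated cells and 1.17, 1.11 and 1.05 at 1 h. They were 0.60, 0.51 and 0.53 at 6 h and -0.50, -0.45 and -0.70 at 24 h. The 1 h arrays lay above all others, the 24 h arrays lay below all others, and unstimulated and 6 h arrays overlapped.

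At 1 h Mfge8 rose by 0.52 (SE 0.11), 1.44-fold, with an adjusted p of 0.0123 by limma, higher on 3 of 3 arrays. It was the only one of the 7 genes called at 1 h, where 4.06% of all genes tested were called higher and 3.39% lower. The adjusted p was 0.123 with normexp on every local background as deposited, 0.585 with median centring, 0.0853 in the Cy5 channel alone, 0.116 with slide as a block and 0.0765 without the unstimulated array of donor A, while the difference stayed between 0.32 and 0.58 under all 22 alternatives. Leaving out a 6 h or 24 h array, or taking donor as a block, could not change this 1 h difference. At 6 h the mean of Mfge8 differed from unstimulated cells by -0.04. At 24 h it was lower by 2.19-fold, a log2 difference of -1.13 (SE 0.11), which was -1.0 with slide as a block and -0.98 within slides.

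Tgm2 had its lowest values at 6 h, when Mertk, Axl and Pros1 had their highest. Its log2 ratios were 4.39, 4.15 and 4.66 in unstimulated cells and 4.83, 4.97 and 4.89 at 1 h. They were 3.33, 3.23 and 3.74 at 6 h and 4.74, 4.70 and 5.20 at 24 h. The 6 h arrays lay below all others, the unstimulated arrays came next, and the 1 h and 24 h arrays overlapped above them.

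The mean of Tgm2 at 6 h was lower than in unstimulated cells by 1.95-fold, a log2 difference of -0.97 (SE 0.18), and -1.15 (SE 0.30) with slide as a block. The 24 h mean was 0.48 above unstimulated cells, a difference that was 0.11 (SE 0.31) with slide as a block, 0.16 within slides and 0.20 with median centring. Between 6 h and 24 h the mean differed by 1.44 (SE 0.18), 2.72-fold, and by 1.26 with the block. At 1 h Tgm2 was 0.49 higher (SE 0.18), on 3 of 3 arrays, with an adjusted p of 0.109 by limma and of 0.0374 with the donor letter as a replicate block. The 2 other probes of Tgm2 gave -0.77 and -0.74 at 6 h and 0.55 and 0.58 at 24 h against unstimulated cells.

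**Figure D2:**
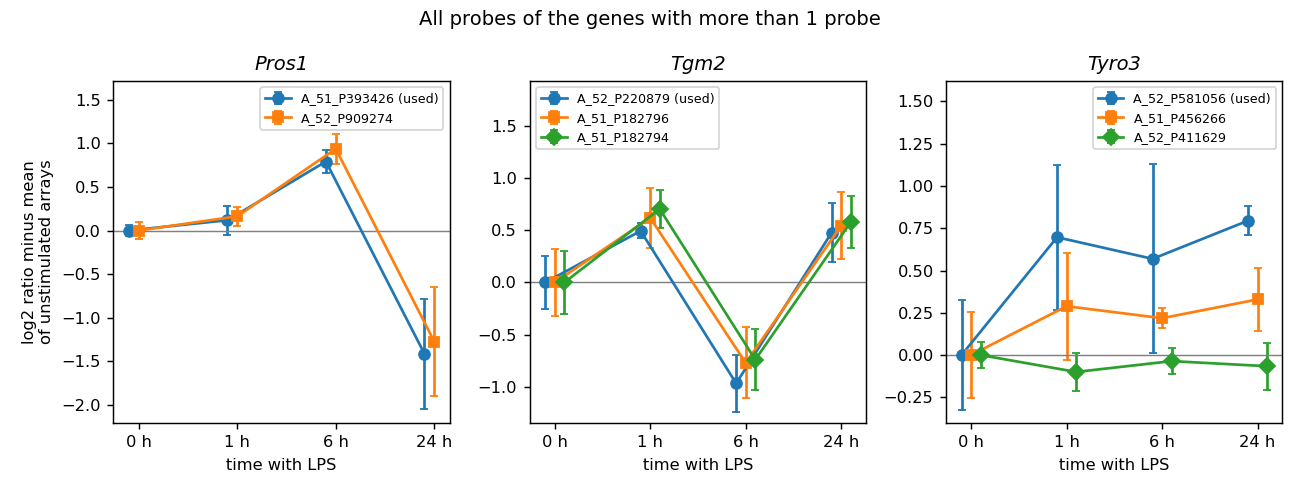
Mean log2 ratio minus that of the unstimulated arrays (y axis) against time with LPS (x axis) for each probe of Pros1, Tgm2 and Tyro3, with SD over 3 arrays. The probes of Pros1 and of Tgm2 run alike, while those of Tyro3 differ in size, from 0.80 to 0.33 at 24 h for the probes that were kept, and the probe near background stays close to 0.

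**Figure D3:**
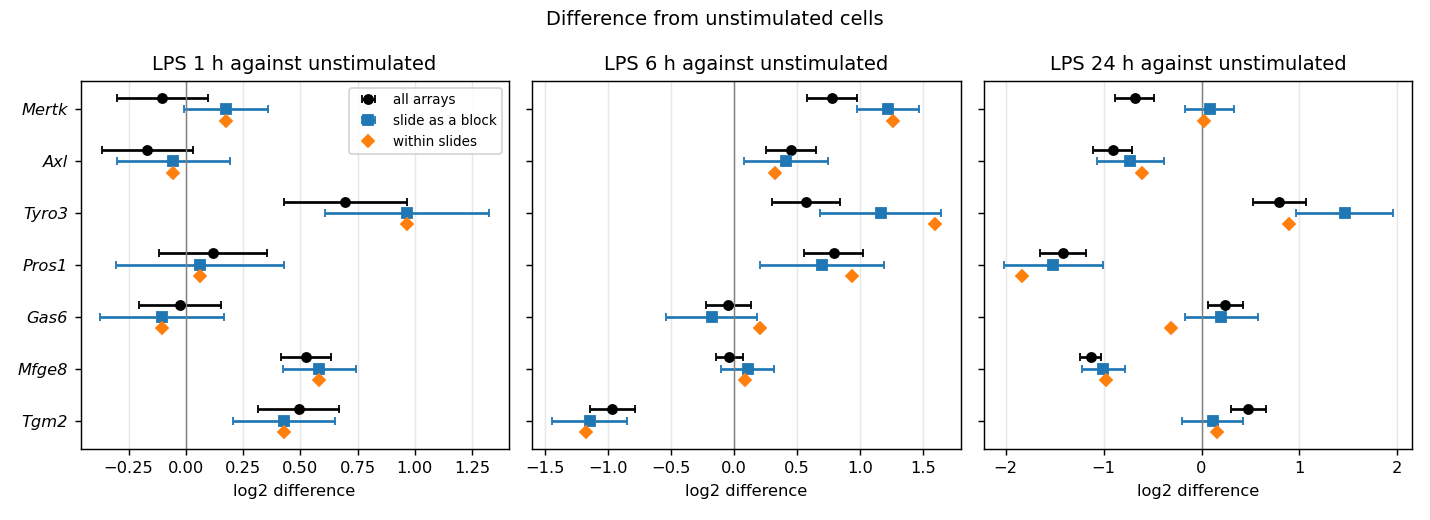
Log2 difference from unstimulated cells (x axis, with its own range in each panel) for each gene at 1, 6 and 24 h, over all arrays and with slide as a block (bars are SE), and within slides (no error). At 24 h Mertk moves from -0.68 to 0.08 with slide as a block, while Pros1, Axl and Mfge8 stay below 0.

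Counted over the 7 genes, groups that did not overlap ran as follows. At 1 h against unstimulated cells 2 genes had all 3 arrays higher (Mfge8 and Tgm2) and 0 had all lower, where 14.2% and 16.5% of all genes did. At 6 h 3 were higher (Mertk, Axl and Pros1) and 1 lower (Tgm2), against 22.9% and 31.1% of all genes. At 24 h 2 were higher (Tyro3 and Tgm2) and 4 lower (Mertk, Axl, Pros1 and Mfge8), against 25.5% and 26.7%. From 6 h to 24 h 1 was higher (Tgm2) and the same 4 were lower, against 19.7% and 15.3%. The selection used values at 6 h and 24 h, and the comparisons with unstimulated cells share those arrays, so nothing is read from these later counts. The 1 h counts share the unstimulated arrays and are not free of the selection either.

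Across the 12 arrays, the patterns of Mertk, Axl and Pros1 lay close to each other. Among 11080 genes with a value on every array, Axl ranked 28 and Pros1 56 by likeness to Mertk, with Pearson r of 0.89 and 0.86, and Tgm2 ranked 11053 with r of -0.89. Tyro3 (r of -0.04) and Gas6 (r of -0.33) were far from Mertk, and Mfge8 stood between them and Pros1 at 0.53. The selection used the courses of Mertk, Pros1 and Tgm2, so the likeness of Mertk to Pros1 and its opposition to Tgm2 restate it and support nothing. The points share the reference pool and, in part, slides, and these correlations are a description of the 4 groups of 3 arrays.

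The genes most like Mertk were Naa20 (r of 0.95), a subunit of an N-terminal acetyltransferase, Cggbp1 (0.95), a protein that binds CGG repeats, and Asb3 (0.94). For Cggbp1 the group means were 0.65 in unstimulated cells, 0.65 at 1 h, 1.26 at 6 h and 0.36 at 24 h. Most like Pros1 were Tomm70a (0.95), an import receptor of the mitochondrial outer membrane, Khdrbs1 (0.95), the RNA-binding protein Sam68, and Sulf2 (0.95), an extracellular sulfatase. Sulf2 had group means of 0.77, 0.89, 1.07 and 0.08 in the same order. Most like Tgm2 were the elongation factor gene Ell (0.95), Ppcdc (0.95), an enzyme of coenzyme A synthesis, and Galnt6 (0.95), a glycosyltransferase. Galnt6 had group means of 1.91, 2.44, 1.44 and 2.45.

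The other genes of apoptotic cell uptake came from 9 lists chosen with earlier results of these data known. Their shares beside those of all genes are therefore a description and show no enrichment. The lists held 155 genes, of which 151 were on the array and 140 were tested. By limma, 17 rose and 2 fell at 1 h, or 12.1% and 1.43% of those tested, where 4.06% and 3.39% of all genes did. At 6 h 34 rose and 24 fell, 24.3% and 17.1%, where 16.1% and 23.5% of all genes did. At 24 h 40 rose and 31 fell, 28.6% and 22.1%, where 18.0% and 21.5% of all genes did, and from 6 h to 24 h 17 rose and 18 fell, where 9.64% and 8.76% of all genes did. The median difference of the listed genes was 0.18 at 1 h, 0.11 at 6 h and 0.15 at 24 h, and that of all genes 0.02, -0.04 and 0.02. With slide as a block the listed genes called numbered 6 up and 1 down at 1 h, 18 and 13 at 6 h, and 21 and 11 at 24 h. Of all 11095 genes the same model called 170 up and 55 down at 1 h, 948 and 1001 at 6 h, and 849 and 913 at 24 h.

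Receptors other than the TAM family included the steepest changes. Of 20 tested, 4 rose and 3 fell at 6 h, and 4 rose and 4 fell at 24 h. The shares of all genes, for this list and those that follow, were 16.1% higher and 23.5% lower at 6 h. At 24 h they were 18.0% and 21.5%. No list was tested as a set, and the counts are a description. Marco, a scavenger receptor, rose by 4.29 at 6 h and 5.26 at 24 h (adjusted p of 3.0e-08 and 1.3e-08 by limma). Cd14, the LPS co-receptor that also tethers apoptotic cells, rose by 3.35 at 1 h, 2.84 at 6 h and 4.54 at 24 h, and Lrp1, a receptor for calreticulin-coated cells, by 0.74 at 6 h and 1.16 at 24 h. Scarb1, a scavenger receptor that binds phosphatidylserine, fell by 1.44 at 6 h, and the lipid receptor Trem2 fell by 1.11 at 24 h, a call that ended with slide as a block (adjusted p 0.143 by limma).

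Among 15 bridging proteins and opsonins, 6 rose at 6 h, and 5 rose and 2 fell at 24 h. The pentraxin Ptx3, above background on 1 of 3 unstimulated arrays, rose by 3.41 at 6 h, annexin A1 (Anxa1) by 2.41 at 6 h, and thrombospondin 1 (Thbs1), which links apoptotic cells to Cd36, by 2.58 at 6 h and 3.94 at 24 h. C1qc, a chain of the complement component that coats dying cells, fell by 1.20 at 24 h, with an adjusted p of 4.8e-04 by limma that was 0.166 with slide as a block. Of 8 genes of inhibitory signals against uptake, 1 rose and 1 fell at 6 h, and 2 rose and 3 fell at 24 h. Cd47, the "do not eat me" signal, rose by 0.70 and Cd24a fell by 2.74 at 6 h. At 24 h Siglecg, a receptor for Cd24a, rose by 0.96 (adjusted p 0.00668 by limma, 0.0834 with slide as a block) and the inhibitory receptor gene Pilra fell by 1.18.

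Of 11 genes for signals of dying cells and their sensing, 6 rose at 6 h and 5 at 24 h. The nucleotide receptor P2ry2 rose by 1.10 at 1 h, 0.97 at 6 h and 1.62 at 24 h. Among 21 engulfment genes 4 rose and 4 fell at 6 h, and 6 rose and 6 fell at 24 h. Of all genes 16.1% rose and 23.5% fell at 6 h, and 18.0% rose and 21.5% fell at 24 h. The kinase Src rose by 1.41 and 1.60 at those times, and the adaptor Elmo2 fell by 1.30 and 1.34. Among 26 genes of phagosome maturation and cargo disposal 4 rose and 3 fell at 6 h, and 7 rose and 3 fell at 24 h, with the lysosomal cholesterol carrier Npc2 up by 1.30 and 1.83 and the lactate transporter Slc16a1 down by 1.38 and 1.82, the 6 h call of Slc16a1 ending with slide as a block (adjusted p 0.06 by limma).

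Genes that act on TAM proteins or below them changed in both directions. Of 10 genes for ligand processing and receptor shedding, 2 rose and 1 fell at 6 h, and 1 rose and 3 fell at 24 h. Adam17, a protease that cleaves Mertk from the cell surface, rose by 0.57 at 6 h (adjusted p 0.0174 by limma, 0.0897 with slide as a block, 0.0911 without the 6 h array of donor A and 0.0819 without the unstimulated array of donor B), and its partner Rhbdf2 by 0.98 (adjusted p 0.00297, and 0.104 with the block). Vkorc1, which recycles the vitamin K needed to modify Pros1 and Gas6, fell by 0.58 at 24 h (adjusted p 0.00233, and 0.125 with the block). Of 10 genes below TAM receptors, 5 rose and 3 fell at 6 h, and 5 rose and 2 fell at 24 h. The cytokine signalling inhibitor Socs3 rose by 2.71, 2.33 and 2.61 at 1, 6 and 24 h, and Socs1 fell by 1.58 at 1 h.

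Of 19 nuclear receptors and other factors known to act on uptake genes, 2 rose and 9 fell at 6 h, and 5 rose and 8 fell at 24 h. Nr1h3 encodes LXR alpha, a sterol receptor known to drive Mertk in macrophages, and rose by 1.42 at 6 h and 0.85 at 24 h (adjusted p of 1.0e-05 and 5.1e-04 by limma). The retinoic acid receptor gene Rarb fell by 2.32 at 6 h and 2.13 at 24 h. Klf4 fell by 2.62 and 2.42, of which the 24 h call ended with slide as a block (adjusted p 0.0639 by limma). Nr4a1, an immediate early nuclear receptor, rose by 3.1 at 1 h and by 1.08 at 24 h, which was 1.63 with slide as a block.

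**Figure D4:**
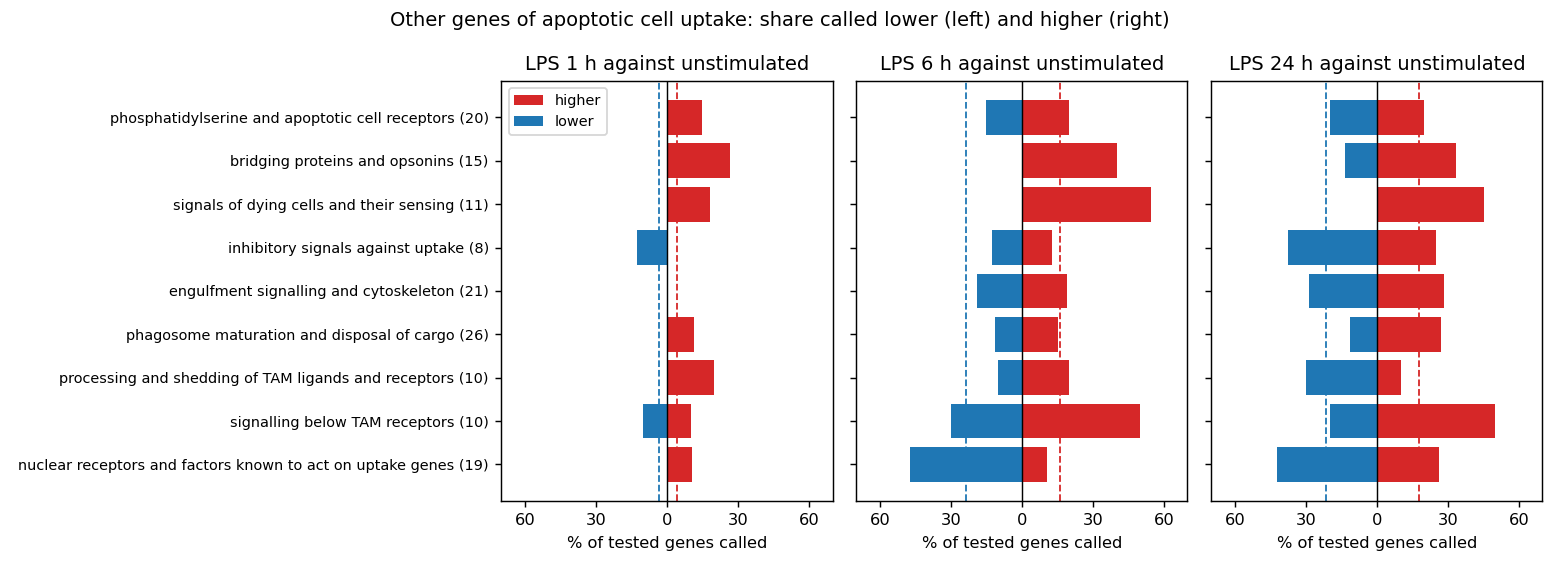
Percent of tested genes of each list (number tested in brackets) called higher (right) and lower (left) by limma at 1, 6 and 24 h against unstimulated cells. Dashed lines are the shares of all genes tested, which at 6 h are 16.1% higher and 23.5% lower.

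Markers of cell types were read beside these results, since in RNA from a whole culture fewer cells of a type and less RNA per cell cannot be told apart. The single markers given with values were chosen after those values were seen. The shares of all genes called, for all marker lists here and below, were 4.06% higher and 3.39% lower at 1 h. They were 16.1% and 23.5% at 6 h, and 18.0% and 21.5% at 24 h. Of 12 markers of conventional dendritic cells 11 were above background on all 12 arrays, all but Flt3, and Itgax had group means between 4.38 and 4.67. By limma, 2 of the 12 were called higher at 1 h, and 4 were called higher and 2 lower at both 6 h and 24 h. The transcription factor genes Irf8, Id2 and Irf4 rose by 1.56, 1.48 and 1.38 at 6 h, and Dpp4 and Kit fell by 1.23 and 0.42 at 24 h. The part of these differences in the results was not tested. Of 11 macrophage and monocyte markers 8 were above background on all 12 arrays. At 24 h, when Mertk, Axl, Pros1 and Mfge8 were lowest, 6 of these 11 were called lower and 2 higher, and their summed Cy5 signal was 96983 to 110325 intensity units, against 129527 to 146383 in unstimulated cells. The mannose receptor Mrc1 fell by 2.92 and Adgre1 rose by 0.94. At 6 h, when Mertk, Axl and Pros1 were highest, the sum was 150994 to 193013, with 1 of 11 higher and 1 lower, and at 1 h, when Mfge8 was highest, it was 166078 to 191790, with 2 higher. The part of these cells in the results was not tested.

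Of 10 neutrophil markers tested 4 fell at 1 h, when Mfge8 was called higher, among them S100a8 by 2.50 and Ltf by 1.95. At 6 h 7 fell and 2 rose, and at 24 h 8 fell and 2 rose. The summed signal was 40906 to 67717 units in unstimulated cells, 9902 to 22091 at 1 h, 6931 to 10457 at 6 h and 3736 to 15184 at 24 h. Its part in the results was not tested. Fibroblast and stroma markers summed to 2334 to 3682 units over all arrays, with 7 of 9 above background on every array and Pdgfra on none. The B cell markers Ms4a1, Pax5 and Ebf1, the T cell marker Cd3d, and 4 endothelial markers, Cdh5, Tek, Tie1 and Emcn, were above background on no array.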

How the data were processed

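RNA was measured on 12 two-colour Agilent arrays in 4 groups of 3. Per the file headers, the authors' scanner files were made with Agilent Feature Extraction 10.7.3.1 (protocol GE2_107_Sep09) and hold spot and local background intensity without normalization. The deposited value table holds log2 ratios of sample to reference made by the authors with limma, per the submitters' processing notes. How else it was made is not stated in the labels. Across probes, the lowest correlation of an array with the values derived here was 0.9995, which settled its direction. Its scale rests on the submitters' notes, since a correlation does not show scale.

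Values were computed in R 4.3.3 with limma 3.58.1 from median signals: normexp with offset 50, local backgrounds marked as outliers set to the array median, loess with span 0.3, control spots and feature outliers at weight 0, feature outliers then left out. Of 41174 probes 22951 matched a gene symbol by accession in RefSeq. Probes well above background in Cy5 on all 3 arrays of at least 1 group were kept (21750), and the brightest probe per gene gave 11095 genes. Over these genes 14 values were missing, and the sample channel had no saturated spot. A model with 1 mean per group (8 residual degrees of freedom) gave two-sided moderated tests with Benjamini-Hochberg adjustment over all genes, called under 0.05. It was tested on simulated data with independent noise, changes at 6 h alone and no slide effect. That run cannot show how slide bears on these results.

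The genes and lists were chosen with earlier results of these data known. Up to 3 called genes per list, direction and comparison with the largest differences may be named, and the 3 genes most like Mertk, Pros1 and Tgm2. Donor letters pair samples only as labels: same-letter arrays deviated together at a median r of 0.11 (-0.21 to 0.58, 18 pairs), different letters at -0.01 (36 pairs). The replicates are given as biological. If donors were not separate animals, p-values cover only the spread between these samples. Alternatives were other background corrections, median centring, the scanner's processed signals, Cy5 alone, the authors' table, no filter, the mean of all probes, slide or donor as a block, and each array left out.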

Additional observations from a re-analysis of the deposited data

How the results depend on the processing

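Some alternatives could not change a difference, namely leaving out an array of neither group compared and taking donor as a block. For a gene with 1 probe, neither could dropping the filter or taking the mean of all probes. Over all 22 alternatives, the direction against unstimulated cells at 6 h and 24 h held for Axl, Pros1, Tgm2 and Tyro3. It held for Mertk at 6 h and for Mfge8 at 24 h. Mertk at 24 h lost its difference, at 0.084 with slide as a block and 0.027 within slides, and was -1.22 with the scanner's processed signals. Mertk at 6 h was 0.15 with normexp as deposited, 1.22 with slide as a block and 1.26 within slides. Gas6, whose groups overlapped, changed sign to -0.31 within slides at 24 h, and to -0.13 with normexp as deposited from 6 h to 24 h. Pros1 was 0.29 with normexp as deposited at 6 h and -1.83 within slides at 24 h, and ranged from -1.77 (without 24 h donor A) to -1.15 with 1 array left out. Tgm2 at 24 h was 0.20 with median centring, 0.11 with slide as a block and 0.16 within slides. Mfge8 at 1 h was no longer called at 0.50 with normexp as deposited, 0.32 with median centring, 0.37 in Cy5 alone and 0.58 with slide as a block, and ranged from 0.46 to 0.57 with 1 array left out. The cause was not tested.

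Genes called were 827, 4397, 4372 and 2042 for 1 h, 6 h, 24 h and 24 h against 6 h. With normexp as deposited they were 243 at 1 h, 2436 at 6 h and 790 from 6 h to 24 h. With median centring they were 225, 2018, 2335 and 927. That scaling moved the median of all genes to -0.12 at 1 h, -0.11 at 24 h and -0.18 from 6 h to 24 h, and the share of calls that were higher from 54.5, 40.6, 45.6 and 52.4% to 79.6, 67.3, 35.6 and 10.4%. With slide as a block the counts were 225, 1949, 1762 and 868. With 1 array left out they ranged from 338 to 1046 at 1 h and from 1079 to 2309 from 6 h to 24 h. Listed genes of uptake called were 8 at 1 h, 38 at 6 h and 12 from 6 h to 24 h with normexp as deposited. With median centring they were 8 at 1 h, 42 at 24 h and 21 from 6 h to 24 h, in Cy5 alone 10 at 1 h, and with slide as a block 7, 31, 32 and 19. With 1 array left out they ranged from 9 to 25 at 1 h and from 17 to 41 from 6 h to 24 h. With the donor letter as a replicate block the listed genes called were 29 at 1 h, Tgm2 at 1 h (0.49) was called, and no other call of the 7 genes changed.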
